A study of Oryza sativa with 8 samples.

Results

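The 10 loci described here are grouped as jasmonate synthesis loci, although the part of 1 of them, OPR1, is less settled. They were measured in rice roots and taken by their Michigan State University release 7 identifiers from the 55986 loci of the count files. They are the lipoxygenase loci LOC_Os12g37260, LOC_Os08g39840, LOC_Os08g39850 and LOC_Os02g10120, the allene oxide synthases AOS1 (LOC_Os03g55800) and AOS2 (LOC_Os03g12500), the allene oxide cyclase AOC (LOC_Os03g32314), the oxophytodienoate reductases OPR7 (LOC_Os08g35740) and OPR1 (LOC_Os06g11290), and the jasmonate-amino acid synthetase JAR1 (LOC_Os05g50890). The comparison asks how enzymatic release of protoplasts changes the root transcriptome, so that affected genes can be kept out of single-cell data. The 4 digested samples were roots treated with a mixture of cell wall-degrading enzymes, and held protoplasts together with pieces that had stayed whole. The 4 intact samples were roots frozen straight from the gel. All 8 came from X.kitaake, labelled WT, which is the Kitaake rice line with an XA21 transgene under the maize ubiquitin promoter. Seedlings had 1 to 3 days of growth at 28 °C after germination. No mock incubation is named for the intact roots, so the enzymes, cutting, osmoticum and time in solution of the study's protoplast protocol cannot be told apart. Nothing in the labels says that the replicates were separate plantings, so the tests measure the spread between these samples, which may be technical.

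Jasmonates are oxygenated fatty acid hormones known for their fast synthesis after wounding. Lipoxygenases of the plastid add oxygen to linolenic acid, and allene oxide synthase and allene oxide cyclase turn the hydroperoxide into oxophytodienoic acid (OPDA). OPDA is reduced in the peroxisome and shortened by β-oxidation to jasmonic acid, which JAR1 joins to isoleucine. The isoleucine conjugate is the form that brings the COI1 receptor and the JAZ repressors together, and the loss of JAZ proteins frees transcription factors such as MYC2. Genes of jasmonate synthesis are themselves known targets of this pathway.

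The libraries were of a 3′ tag type, which reads the end of each transcript, so levels of different loci can be set side by side without a length term. Levels are given in CPM, the usual counts scaled to library size, here with TMM factors. Digested libraries held 115006 to 471019 counts on genes, against 2333236 to 3595349 in intact libraries. A count was worth 2.46 to 9.29 CPM in digested and 0.249 to 0.407 CPM in intact libraries. Reads that aligned at more than 1 place, which were not counted, made up 13.0% to 24.3% in digested and 3.93% to 5.36% in intact libraries. Of the study's 58 cell type markers of the root, all had counts, and of 47 tested 28 were lower and 1 was higher in digested roots. Among all 13104 tested genes, 18.5% were lower and 20.0% higher. The counts differed by cell type, with 7 of 8 tested trichoblast, 4 of 4 vascular tissue and 6 of 8 xylem markers lower. Of the endodermis markers 1 of 5 tested was lower, and of the meristem markers 0 of 5. Of the 28 lower markers, 17 missed the minimum of the filter on low counts in at least 1 digested library. Among these were 4 trichoblast, 3 vascular tissue, 2 xylem and 1 endodermis markers, so the difference between cell types rests on few markers. Of the 22 markers past it in all 8 libraries 11 were lower and 1 higher. The shares among all genes past it in all 8 libraries were not computed. The summed level of all 58 markers was 1727 to 2158 CPM in digested and 3820 to 4197 CPM in intact libraries. The part of these shifts in the results for the jasmonate loci was not tested. In whole samples, fewer cells of a type and less RNA per cell cannot be told apart.

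In digested roots, transcripts of AOS1, AOC, OPR1, JAR1 and the lipoxygenase locus LOC_Os08g39850 were higher, by 2.03-fold for AOC to 48.7-fold for OPR1. OPR7 did not pass the test. The other 4 loci were too low to be tested, and LOC_Os12g37260 and LOC_Os02g10120 had no count in any library. Thus 5 of the 10 loci were called, all higher, at an adjusted p under 0.05 from edgeR's quasi-likelihood test. Among all 13104 tested genes, 38.5% were called, 20.0% higher and 18.5% lower. The 10 loci were chosen with earlier results of these data known, so they are not an independent set beside this background. In the same 5 loci every digested library lay above every intact library, as was so for 17.4% of tested genes. LOC_Os08g39850, AOS1, OPR1 and JAR1 also reached a log2 fold change of 2, where 9.06% of tested genes were called and higher by as much. The median log2 fold change was 2.66 over the 6 tested loci and -0.06 over all tested genes. LOC_Os08g39850 entered the test only through its level in digested roots, since no intact library reached the minimum of 7.13 CPM on unscaled totals, whereas the other 5, with a median of 2.07, reached it in all 8 libraries. Summed over the 10 loci, digested libraries had 1887 to 2648 CPM and intact libraries 382 to 430 CPM.

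**Figure D1:**
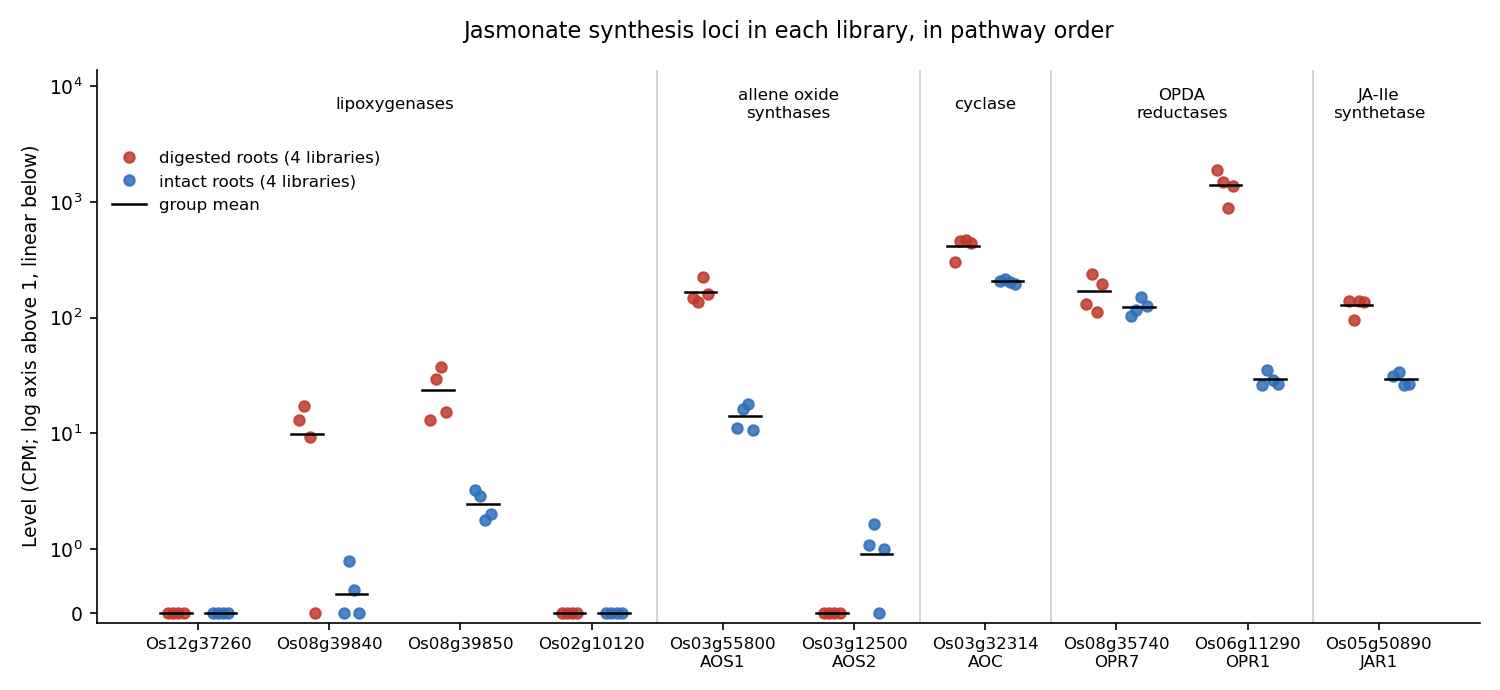
Level of each locus (y axis, CPM, logarithmic above 1 and linear below) in pathway order (x axis), with 1 point per library, digested roots to the left of intact roots and bars at the group means. OPR1 stands at 892 to 1898 CPM in digested and at 26.3 to 35.4 CPM in intact roots, while OPR7 overlaps between the groups.

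The 4 lipoxygenase loci of the set, for the oxygenation that opens the pathway, had a lower summed level than any of its other steps in digested and in intact roots. LOC_Os08g39850 had 13.2, 29.5, 37.2 and 15.1 CPM in digested replicates 1 to 4, from 3, 12, 4 and 2 counts. It had 3.24, 2.85, 1.79 and 1.99 CPM in intact replicates 1 to 4, from 9, 7, 5 and 8 counts. The groups did not overlap, although the digested values differed among themselves by more than 2-fold and rest on few molecules. On the log2 scale the fold change was 3.25 ± 0.49 (SE, edgeR, adjusted p = 4.40e-06). LOC_Os08g39840, the neighbour in the numbering of loci, had 3, 7, 1 and 0 counts in digested replicates 1 to 4 and 0, 2, 1 and 0 in intact replicates 1 to 4. Digested replicate 4 thus had no count, and the groups overlap. Against the 3 counts of intact roots, the 11 counts of digested roots gave a log2 ratio of 5.66, with an exact binomial 95% interval of 3.74 to 8.14 for counting error only. Too few libraries reached the minimum for a test. With no minimum it had a log2 fold change of 5.07 (adjusted p = 2.05e-07 by edgeR), and DESeq2 gave 5.26 (adjusted p = 5.41e-05).

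LOC_Os12g37260 and LOC_Os02g10120 had 0 counts in all 8 libraries. Taking 3 counts over a group as the limit that a count of 0 allows, their levels could be up to 3.43 CPM in digested and 0.249 CPM in intact roots. The limits cover counting error only. Whether the transcript ends of these loci lie within the annotation used for counting was not tested. Summed over the 4 lipoxygenase loci, digested roots had 33.7 ± 15.6 CPM and intact roots 2.76 ± 0.815 CPM (SD, n = 4 each).

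The second step, allene oxide synthase, commits the lipid hydroperoxide to the jasmonate branch. AOS1 had 149, 138, 223 and 159 CPM in digested replicates 1 to 4, against 11.1, 16.3, 17.9 and 10.7 CPM in intact replicates 1 to 4. Every digested library was more than 7-fold above the highest intact library. AOS1 had a log2 fold change of 3.53 ± 0.25 (SE, edgeR, adjusted p = 3.80e-12), which is 11.5-fold, with a 95% interval of 8.02 to 16.5. It stood 585th from the top among the 13104 tested genes ordered by log2 fold change. AOS2 had no count in any digested library and 3, 4, 0 and 4 counts in intact replicates 1 to 4. At the intact rate, 0.799 counts would have been expected over the 4 shallower digested libraries, so a fall of AOS2 was not detectable at this depth and no fold is given. With no minimum, AOS2 was not called (adjusted p = 0.466 by edgeR). AOS1 made up all counts of both synthases in the 4 digested libraries and in intact replicate 3. In the other intact libraries its share was 90.9% to 91.5%.

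AOC, the cyclase that sets the ring of OPDA, had the highest level of the 10 loci in intact roots and the second highest in digested roots. Its level was 302, 462, 474 and 439 CPM in digested replicates 1 to 4, against 206, 217, 204 and 195 CPM in intact replicates 1 to 4. The groups did not overlap, and digested replicate 1 was the lowest of its group. AOC was higher in digested roots by a log2 fold change of 1.02 ± 0.17 (SE, edgeR, adjusted p = 2.64e-05). AOC therefore passed the test with a smaller fold change than AOS1 before it, though the difference between the loci was not tested.

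The largest and the smallest fold change among the 6 tested loci were those of the reductases OPR1 and OPR7. OPR7 and OPR1 belong to different subgroups of the reductase family. OPR7 is of the kind known to reduce the stereoisomer of OPDA from which jasmonic acid is made, whereas OPR1 is of the kind that prefers other substrates, and its part in jasmonate synthesis is less settled. OPR1 had 1898, 1485, 892 and 1371 CPM in digested replicates 1 to 4, from 433, 604, 96 and 181 counts. In intact replicates 1 to 4 it had 26.3, 35.4, 29.1 and 26.4 CPM, from 73, 87, 81 and 106 counts. Even digested replicate 3, the lowest of its group, was far above all intact libraries. OPR1 had a log2 fold change of 5.61 ± 0.22 (SE, edgeR, adjusted p = 1.94e-17), or 48.7-fold with a 95% interval of 35.5 to 66.9. This placed OPR1 235th from the top among all tested genes.

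OPR7 had 132, 238, 112 and 197 CPM in digested replicates 1 to 4, against 103, 116, 150 and 125 CPM in intact replicates 1 to 4. The groups overlap, with 2 digested libraries within the intact range and 2 above it. The log2 fold change was 0.52 ± 0.22 (SE, edgeR, adjusted p = 0.0625), and its 95% interval of 0.07 to 0.97 before adjustment leaves room for a rise of up to 1.96-fold. Without digested replicate 2 the value was 0.08 (adjusted p = 0.863 by edgeR).

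The relation between both reductases was turned round. OPR1 made up 93.5%, 86.2%, 88.9% and 87.4% of the counts of OPR1 and OPR7 in digested replicates 1 to 4, against 20.3%, 23.4%, 16.2% and 17.4% in intact replicates 1 to 4. The shares did not overlap between the groups, and a share within a library does not depend on the scaling. OPR1 also made up 47.3% to 71.7% of the counts of all 10 loci in digested libraries and 6.76% to 8.35% in intact libraries. With OPR1 left out, the other 9 loci summed to 750 to 994 CPM in digested and 356 to 401 CPM in intact libraries. Several loci of the reductase family carry neighbouring numbers on chromosome 6, and reads that align at several places were discarded, so that the split between close copies is uncertain.

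**Figure D2:**
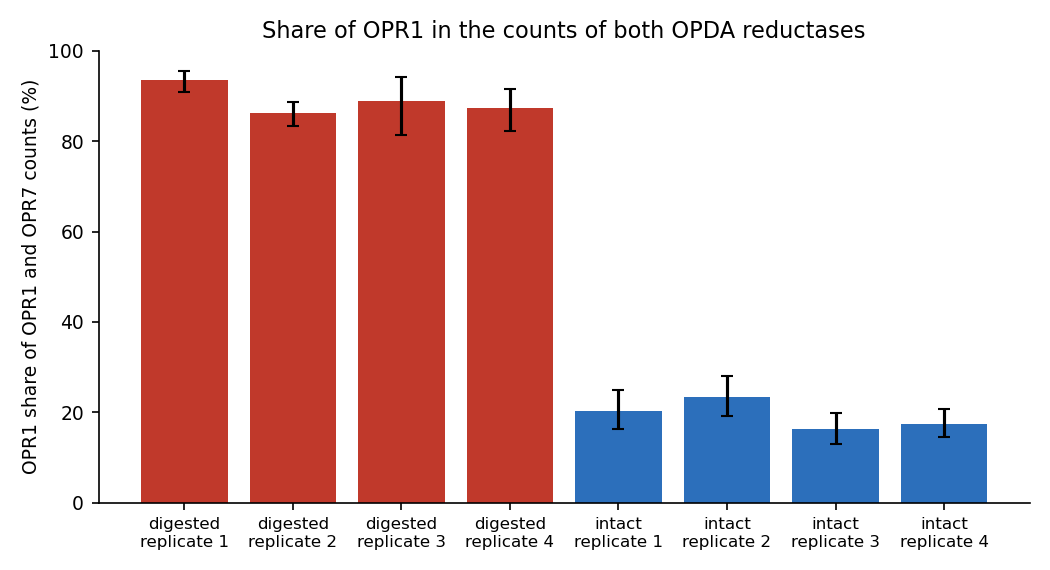
Share of OPR1 in the summed counts of OPR1 and OPR7 (y axis, %) in each library (x axis), with exact binomial 95% intervals as error bars, for counting error only. The digested libraries lie at 86.2% to 93.5% and the intact libraries at 16.2% to 23.4%.

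JAR1 closes the series by making the active isoleucine conjugate. It had 140, 95.9, 139 and 136 CPM in digested replicates 1 to 4, against 31.3, 33.8, 26.2 and 26.9 CPM in intact replicates 1 to 4. Digested replicate 2 was the lowest of its group and still above every intact library. JAR1 had a log2 fold change of 2.07 ± 0.23 (SE, edgeR, adjusted p = 2.92e-08), or 4.18-fold with a 95% interval of 3.00 to 5.84. The value was below 2 under several other settings, down to 1.76 with total counts as the scaling, and JAR1 was called under each of them.

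**Figure D3:**
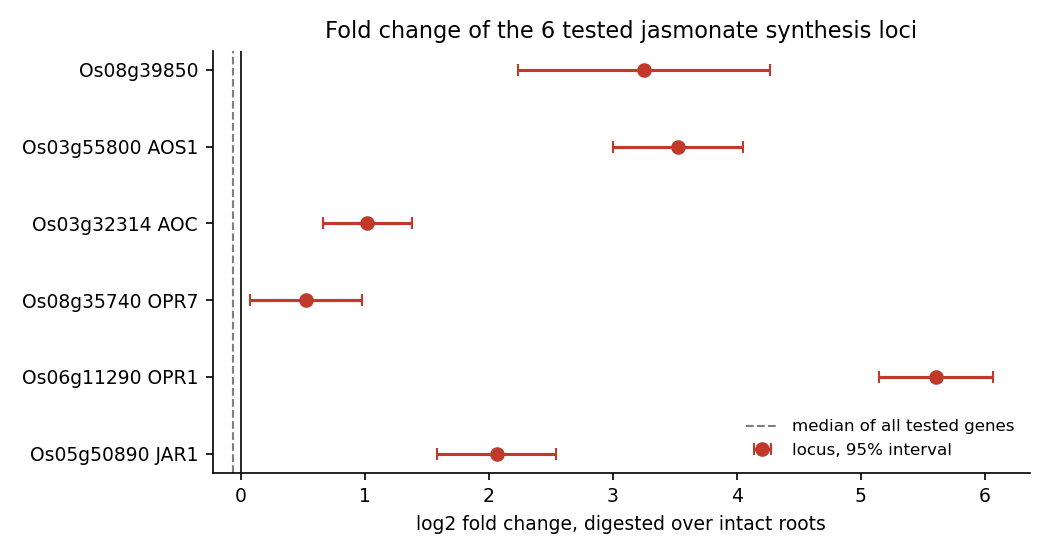
Log2 fold change of digested over intact roots (x axis) for the 6 tested loci in pathway order (y axis), with 95% intervals from edgeR before adjustment and the median of all tested genes as a dashed line. OPR1 at 5.61 and OPR7 at 0.52 are the extremes, and AOC at 1.02 is the lowest of the 5 called loci.

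The order of the levels differed between the groups. In digested roots OPR1 came first with 1411 ± 414 CPM and AOC second with 419 ± 79.3 CPM (SD, n = 4 each). OPR7 with 170 ± 58.6, AOS1 with 167 ± 38.2 and JAR1 with 128 ± 21.5 CPM followed (SD, n = 4 each), where neighbours in the order overlapped. LOC_Os08g39850 was next with 23.7 ± 11.5 CPM (SD, n = 4), below all libraries of JAR1. In intact roots AOC came first with 206 ± 9.12 CPM and OPR7 second with 123 ± 19.9 CPM (SD, n = 4 each). JAR1 with 29.5 ± 3.60 and OPR1 with 29.3 ± 4.27 CPM overlapped (SD, n = 4 each), and AOS1 with 14.0 ± 3.63 CPM (SD, n = 4) lay below both. LOC_Os08g39850 followed with 2.47 ± 0.686 CPM (SD, n = 4).

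The other loci of the pathway were taken from lists of 54 identifiers written from general knowledge of rice gene names, since the sources used here do not annotate them. Of these, 8 had no count, 35 were tested, 18 were higher and 8 lower in digested roots, and the median log2 fold change of those tested was 0.88. Over all tested genes, 20.0% were higher and 18.5% lower. These lists, too, were chosen with earlier results of these data known. Of the 18 higher loci, 6 missed the minimum of the filter on low counts in at least 1 intact library. Of the 8 lower loci, 4 missed it in at least 1 digested library. For these higher and lower loci the filter itself favoured a difference. Of the 21 loci past it in all 8 libraries, 12 were higher and 4 lower. The shares among all genes past it in all 8 libraries were not computed, so these counts have no matched background. Among the 10 other lipoxygenase loci, 2 of 5 tested were higher and 3 lower. Of the 3 lower ones, 2 missed the filter's minimum in at least 1 digested library. LOC_Os04g37430 had 197, 68.8, 9.29 and 37.9 CPM in digested replicates 1 to 4, against 7.19, 6.91, 10.0 and 11.2 CPM in intact replicates 1 to 4. Its groups overlap through digested replicate 3, and its log2 fold change was 3.28 ± 0.52 (SE, edgeR, adjusted p = 0.000271). Without digested replicate 1 the log2 fold change of LOC_Os04g37430 was 2.34. The summed level of the 10 other lipoxygenase loci, 372 to 1070 CPM in digested and 478 to 635 CPM in intact libraries, overlapped. Which of them act in jasmonate synthesis was not tested, so the sum does not describe the lipoxygenase step of the pathway.

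Hydroperoxide lyases compete with allene oxide synthase for the same hydroperoxides and lead to leaf aldehydes. Of the 3 loci listed for this branch, whose names as synthase or lyase differ among sources, 2 had no count. LOC_Os02g12690 had 26.3, 51.6, 27.9 and 45.4 CPM in digested replicates 1 to 4, against 350, 294, 238 and 246 CPM in intact replicates 1 to 4. It was lower in every digested library, with a log2 fold change of -2.80 ± 0.26 (SE, edgeR, adjusted p = 6.28e-10). The fold changes of LOC_Os02g12690 and AOS1 had opposite signs. The summed level of AOS1 and AOS2 exceeded that of LOC_Os02g12690 in digested libraries and lay below it in intact libraries. Whether LOC_Os02g12690 acts as a lyase or as a synthase was not tested, so these levels do not compare both branches.

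Of the 8 other loci of the reductase family, 4 were tested, 3 higher and 1 lower. Of these, 1 higher locus reached the filter's minimum in 0 intact libraries, and the lower one in 3 of the 4 digested libraries. LOC_Os06g11210 had 579, 511, 307 and 507 CPM in digested replicates 1 to 4, against 49.6, 49.2, 53.1 and 48.4 CPM in intact replicates 1 to 4. Its groups were far apart, with a log2 fold change of 3.27 ± 0.19 (SE, edgeR, adjusted p = 6.78e-14). For β-oxidation, which shortens the side chain, 4 of 8 tested loci were higher and 2 lower, against 20.0% higher and 18.5% lower among all tested genes, so that the share of lower loci was near the background. The median log2 fold change of the 8 was 0.44. Of the 2 other loci of the JAR family, 1 was tested and not called.

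Downstream, 1 of 4 tested loci of perception and MYC2 was higher and 1 lower, shares near the 20.0% and 18.5% of all tested genes. The lower locus, LOC_Os01g63420, reached the filter's minimum in 3 digested and 4 intact libraries. It had 17.5, 22.1, 46.5 and 7.57 CPM in digested replicates 1 to 4, against 90.6, 92.7, 79.3 and 84.5 CPM in intact replicates 1 to 4. It was below the intact range in every digested library (log2 fold change -1.99 ± 0.32, SE, edgeR, adjusted p = 1.25e-05). Of the 15 JAZ loci, 12 were tested, 8 were higher and none was lower, with a median log2 fold change of 3.69. Of the 8, 5 missed the filter's minimum in at least 1 intact library, so that for these the filter itself favoured a rise. Of the 5 JAZ loci past it in all 8 libraries 3 were higher, with a median of 1.25, again without a matched background. The 3 loci of the CYP94C family, which oxidizes the isoleucine conjugate, were too low to be tested, and summed to 26.3 to 51.6 CPM in digested and 0.997 to 1.22 CPM in intact libraries. These sums rest on few molecules, with 27, 3 and 7 counts per locus in digested and 6, 7 and 0 in intact roots. With no minimum, their log2 fold changes were 5.59, 2.30 and 6.56 (adjusted p = 4.43e-18, 0.170 and 1.47e-06 by edgeR). DESeq2 gave 5.75, 2.44 and 6.65 (adjusted p = 4.10e-11, 0.0990 and 0.000709). The third locus had 4, 3, 0 and 0 counts in digested replicates 1 to 4 and none in intact roots, so its fold change has no firm size. As all 3 loci missed the filter, these values are descriptive only.

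**Figure D4:**
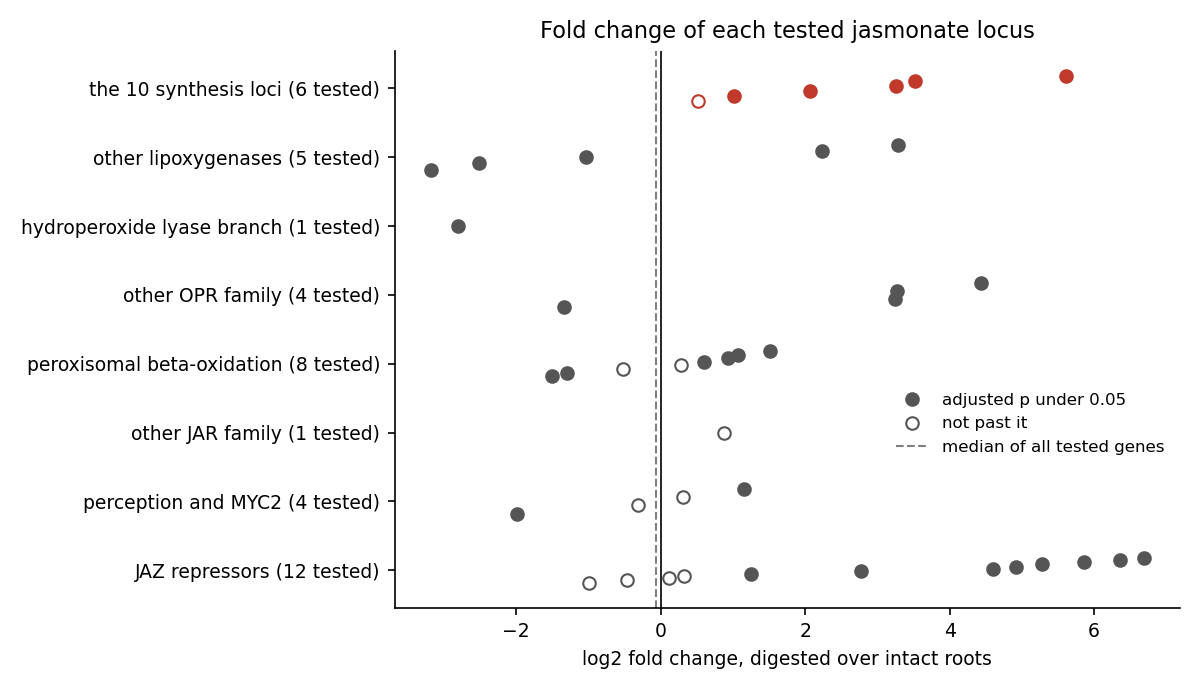
Log2 fold change of digested over intact roots (x axis) for every tested locus of each list (y axis), with filled points at an adjusted p under 0.05, open points otherwise, and the median of all tested genes as a dashed line. The synthesis loci, in red, lie between 0.52 and 5.61, the 5 other lipoxygenases on both sides of 0, and 8 of 12 JAZ loci are filled and to the right.

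AOS1, AOC, OPR1 and JAR1 passed the test at an adjusted p under 0.05 under each alternative and without any 1 library, whereas LOC_Os08g39850 was not tested without any 1 of the intact libraries or with intact counts thinned to the depth of the digested ones. The log2 fold change of OPR1 lay between 5.14 and 5.66 and that of AOS1 between 3.22 and 3.71 over 19 alternatives. That of AOC lay between 0.72 and 1.04, that of JAR1 between 1.76 and 2.09, and that of OPR7 between 0.08 and 0.58, again over 19. LOC_Os08g39850 lay between 2.81 and 3.39 over the 14 alternatives in which it was tested.

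**Figure D5:**
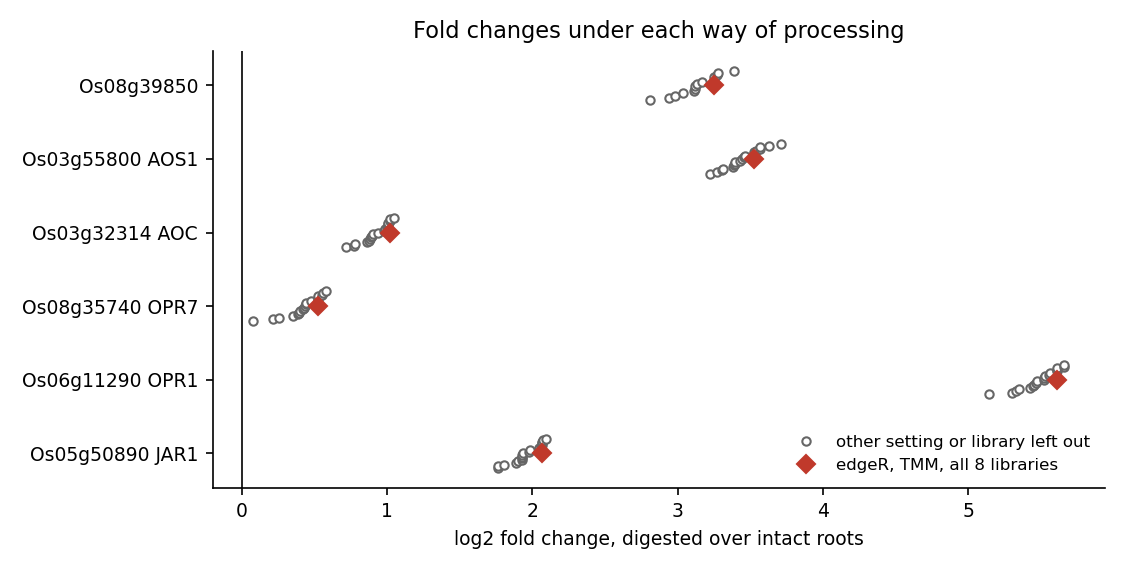
Log2 fold change (x axis) of the 6 tested loci (y axis) with edgeR, TMM scaling and all 8 libraries (diamonds) and under each other setting or with a library left out (open circles). All values lie to the right of 0, and those of OPR7 reach down to 0.08.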

How the data were processed

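RNA of 4 digested and 4 intact root samples was sequenced as 3′ tags with unique molecular identifiers (QuantSeq). Reads were mapped by the authors to release 7 of the Michigan State University genome and counted per locus with HTSeq-count, and the authors deposited whole counts per locus without normalization. The submitters' processing notes also name STAR, UMI-tools and edgeR, without versions. Neither library sizes nor tests used the 5 summary rows of HTSeq, among which reads outside any locus made up 13.4% to 14.9% in digested and 13.0% to 13.9% in intact libraries.

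Groups and replicate numbers come from the sample titles. The counts were fitted with edgeR 4.0.16 in R 4.3.3 (filterByExpr with a minimum count of 10, TMM, robust glmQLFit, glmQLFTest, prior count 0.125), over all tested genes with Benjamini-Hochberg adjustment, on the condition alone. The fold change is digested over intact. Its standard error (SE) is its absolute log2 value over the square root of F, and intervals use the degrees of freedom of the test. DESeq2 1.42.0 and limma 3.58.1 were used as alternatives. Floors (3 counts over a group) and binomial intervals cover counting error only. The procedure was tested on simulated data.

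The 10 loci and all lists were chosen with earlier results of these data known. From each pathway list, at most 1 locus could be named, that with the largest absolute log2 fold change among those called with a mean of at least 10 CPM. Of the loci that met this rule, 2 higher and 2 lower ones are described above. LOC_Os10g31950 of β-oxidation and LOC_Os03g08310 of the JAZ list, both higher, also met it, with log2 fold changes of 1.51 and 6.69. LOC_Os03g08310 reached the filter's minimum in 0 intact libraries. The sources do not pair these identifiers with names. Release 7 identifiers were not found in the reference table, so no coordinates are given. No replicate pair was alike within sampling noise, with chi-square values of 1.72 to 7.65 per degree of freedom.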

Additional observations from a re-analysis of the deposited data

Results flagged for a closer look

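In each group of 4 libraries, the gap between the highest or lowest library and its neighbour was divided by the group's range, for the 10 loci and for 4 library measures. Of 23 groups with any spread, 3 exceeded the critical ratio of Dixon at 95% for 4 values, where chance gives about 1 in 20, or 1.15. JAR1 (LOC_Os05g50890) had 95.9 CPM in digested replicate 2, the deepest digested library, against 136 to 140 CPM in the other 3, a ratio of 0.911. Without that library its log2 fold change was 2.07 (adjusted p = 4.70e-07 by edgeR). Reads that could not be given to 1 locus made up 0.240% in digested replicate 1, against 0.147% to 0.162% in the other digested libraries, a ratio of 0.838. They made up 0.0907% in intact replicate 4, where the other 3 of that group had 0.112% to 0.117%, a ratio of 0.841.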

How the results depend on the processing

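Of the 10 loci, 5 were called, all higher, under each other scaling, with limma-voom, a filter of 1 CPM in 4 libraries and an adjusted p under 0.01. Among all genes, the CPM filter called 5670 of 17828. The other settings named here called 3749 (adjusted p under 0.01) to 5770 (total counts) of 13104. No filter and DESeq2 called 6, LOC_Os08g39840 being the addition, against 6051 of 25256 and 5464 of 18382 among all genes. Thinned intact counts called 4 of 5 tested, LOC_Os08g39850 no longer being tested, against 2204 of 4615 among all genes. At a log2 fold change of at least 2, 4 were called, without AOC. The other pathway loci called numbered 15 in place of 26, since the threshold asks more of each. Among all 13104 genes, 2209 were called in place of 5048. Leaving out a library gave 4 to 5 loci, all higher and 0 lower, and 24 to 27 other pathway loci. The lower value of 4 arose where LOC_Os08g39850 was not tested without an intact library. Among all genes, 3791 of 8689 (without intact replicate 4) to 5341 of 15181 (without digested replicate 3) were called. In edgeR, total counts, upper-quartile factors and RLE size factors shifted the log2 fold changes of all genes by a median of -0.31, -0.27 and -0.14. Those of the loci shifted by about as much. No locus changed direction. The shallow digested libraries limit what can be said of AOS2 and of the lipoxygenases.

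The deviations from the group means in samples of the same replicate number had a correlation of -0.30, 0.06, -0.11 and -0.06 for numbers 1 to 4. Counting error in the shallow digested libraries could hide a pairing, so these values do not settle whether the numbers pair the samples. With a replicate block, 5 loci were called, 5 higher and 0 lower, and 26 other pathway loci, with 4180 genes called in place of 5048.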
